A study of Rattus norvegicus with 18 samples.

Results

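Heart muscle cells of newborn rats that received phenylephrine (PE) together with 50 µM Senexin A were compared, gene by gene, with Vehicle cells, in primary cultures of ventricular myocytes. The comparison took 3 libraries of each group, 6 of the 18 libraries of the study, chosen by their labels and not by any measured value. PE is an agonist of the alpha1-adrenergic receptor and was given at 10 µM. Senexin A inhibits the kinase activity of CDK8, a kinase of the Mediator complex. The study asked how that activity bears on the transcriptional response to hypertrophic stimulation. The cells came from Wistar rats at postnatal day 3. All cultures, Vehicle included, had first been kept 48 h with AraC, a nucleoside analog toxic to cells that copy their DNA, then for 24 h without serum, and were harvested after 48 h of treatment with the media replaced at 24 h. Groups with PE and no inhibitor (PE) and with 50 µM Senexin A and no PE (50 µM alone), 3 libraries each, were used to place the values. The comparison with Vehicle changes both agents at once, so it gives the net state of stimulated and inhibited cells and not the effect of either agent.

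Alpha1-adrenergic stimulation makes neonatal cardiomyocytes enlarge, add sarcomeres and return to a fetal pattern of genes, with the natriuretic peptides Nppa and Nppb and the skeletal alpha-actin Acta1 as its classical readouts. Mediator joins transcription factors to RNA polymerase II. Its kinase module, made of CDK8 or CDK19, cyclin C, MED12 and MED13, binds it reversibly and can help or hinder transcription, depending on the gene. The integrated stress response is a pathway in which phosphorylation of the initiation factor eIF2 slows translation in general while the transcription factor ATF4 is translated, and ATF4 then drives genes of amino acid synthesis, uptake and tRNA charging.

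Values were deposited as FPKM (fragments mapped to a gene, scaled by its length and by the mapped fragments of the library), and FPKM sums ran from 790067 to 897706 with PE plus 50 µM and from 610324 to 660958 in Vehicle. The 10 most abundant rows took 13.71% to 15.07% of the sum with PE plus 50 µM and 9.64% to 12.37% in Vehicle. The cultures read as heart muscle: 9 of 10 cardiomyocyte markers were measured (Ttn has no row), and their summed level ran from 50945 to 64726 FPKM with PE plus 50 µM and from 36194 to 50945 FPKM in Vehicle. Of these 9, 3 were higher and 1 lower (median 0.11), and 3 were higher and 4 lower with quantile normalization (median -0.11). The median was 0.23 without Vehicle replicate 1 and 0.04 without Vehicle replicate 3. RNA of other cells was present as well. Fibroblast markers summed to 651 to 1271 FPKM with PE plus 50 µM and to 1885 to 3174 FPKM in Vehicle, and smooth muscle and pericyte markers to 1880 to 2082 FPKM with PE plus 50 µM and 4614 to 6235 FPKM in Vehicle. Endothelial markers stayed low, with a summed level of 35.7 to 46.5 FPKM with PE plus 50 µM and 59.4 to 70.7 FPKM in Vehicle. Each library is bulk RNA, so fewer cells of a type and less RNA per cell cannot be told apart. One feature ran across groups by replicate number. Myl7, the atrial regulatory light chain, had 357, 187 and 32.9 FPKM with PE plus 50 µM, 1117, 471 and 93.8 with PE, 592, 371 and 49.1 with 50 µM alone and 1252, 602 and 115 in Vehicle (replicates 1 to 3), so that replicate 3 was the lowest library of each group. Sln, the atrial inhibitor of the calcium pump, had 74.6, 35.8 and 3.03 FPKM with PE plus 50 µM and 339.8, 154 and 28.6 in Vehicle, in the same order of replicates. Both atrial genes were picked out after their values were seen. Each was lower with PE plus 50 µM than in Vehicle in 3 of 3 pairs of libraries with the same number. The planned fit, without a block, called neither (adjusted p = 0.225 for Myl7 and 0.176 for Sln), whereas with the replicate number as a block both were called lower (log2 change -1.76, adjusted p = 6.23e-09 for Myl7, and -2.37, adjusted p = 1.65e-06 for Sln).

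A gene is described as higher (it rose) or lower (it fell) where limma's moderated test on log2(FPKM + 1), adjusted over 10478 rows by the Benjamini-Hochberg method, gave an adjusted p under 0.05. By that rule 6633 rows, 63.3% of those tested, differed between PE plus 50 µM and Vehicle. Of all rows, 33.2% were higher (3480) and 30.1% were lower (3153). The typical change was small, with a median size of 0.41 on the log2 scale and a median standard error (SE) of 0.12. At least a 2-fold change on that scale was reached by 667 of the higher rows (6.37% of rows) and 743 of the lower ones (7.09%), and a 4-fold change by 113 and 72 rows. FPKM ranges of the 3 libraries of each group did not overlap in 68.1% of rows. A list of genes is therefore read below against a background of 33.2% higher, 30.1% lower and a median log2 change of 0.01.

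**Figure D1:**
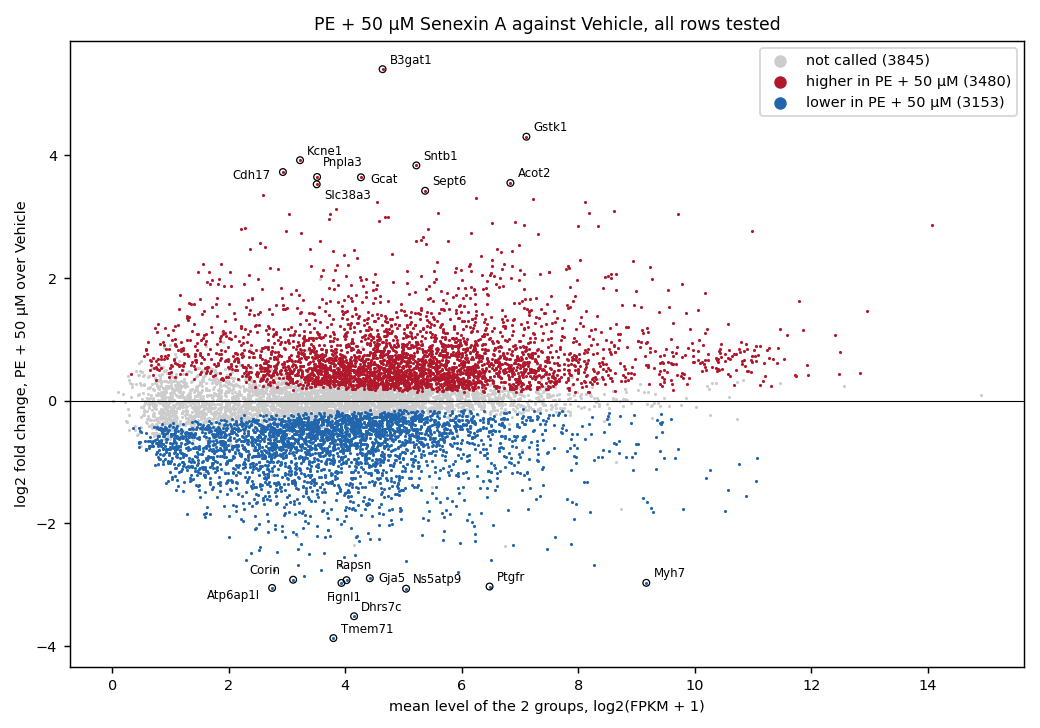
Log2 fold change of PE plus 50 µM over Vehicle (y axis) against the mean log2(FPKM + 1) of both groups (x axis) for each of the 10478 rows tested, with 3480 higher rows in red, 3153 lower rows in blue and rows not called in grey. The 20 circled genes are those described next, from B3gat1 at 5.41 to Tmem71 at -3.87, and called rows of both directions occur from low to high levels.

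The gene that rose most was B3gat1, a glucuronyltransferase that builds the HNK-1 carbohydrate epitope (rn5 chr8:27797385-27823230). It had 66.2, 43.8 and 33.1 FPKM with PE plus 50 µM against 0.12, 0.0352 and 0.159 FPKM in Vehicle, a log2 change of 5.41 ± 0.37 (SE, adjusted p = 9.91e-09). PE had 0.231, 0.195 and 0.106 FPKM and 50 µM alone had 14.9, 15.8 and 10.9 FPKM, so the groups with PE or Vehicle and no inhibitor lay near 0 while both groups at 50 µM stood well above them. Gstk1, a mitochondrial and peroxisomal glutathione transferase (rn5 chr4:136427392-136431712), had 207, 317 and 261 FPKM with PE plus 50 µM against 12.5, 10.7 and 13.1 FPKM in Vehicle (4.31 ± 0.19, adjusted p = 1.01e-10). Its level with 50 µM alone, 69.9, 70.5 and 78.3 FPKM, lay between these groups, and PE, at 15.7, 12.4 and 11.5 FPKM, overlapped Vehicle.

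Kcne1, the accessory subunit of the slow delayed rectifier potassium channel, had 21.2, 20.6 and 7.94 FPKM with PE plus 50 µM, while Vehicle had 0.205, 0.01 and 0.01 FPKM, where 0.01 is the floor of the table (3.92 ± 0.42, adjusted p = 8.98e-07). Sntb1, a syntrophin of the dystrophin complex, had 71.8, 65.2 and 68.8 FPKM against 4.51, 3.37 and 3.77 FPKM in Vehicle (3.84 ± 0.23, adjusted p = 2.36e-09). Sntb1 was also higher in PE, at 23.2, 13.4 and 12.6 FPKM, than in Vehicle (log2 change 1.79 ± 0.23, adjusted p = 3.45e-05). Cdh17, a cadherin better known from the intestine, had 16.95, 12.5 and 10.03 FPKM against 0.0235, 0.0618 and 0.0557 FPKM in Vehicle (3.73 ± 0.18, adjusted p = 3.04e-10).

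The other 5 rises were Pnpla3, Acot2, Slc38a3, Gcat and Sept6. Pnpla3, a lipid droplet acylhydrolase, averaged 20.2 ± 2.07 FPKM with PE plus 50 µM and 0.687 ± 0.169 FPKM in Vehicle (SD, n = 3 each), a log2 change of 3.65. Acot2, the mitochondrial acyl-CoA thioesterase, averaged 209 ± 47.2 FPKM with PE plus 50 µM and 16.9 ± 4.13 FPKM in Vehicle (3.55). Acot2 was the one gene among these 10 that was higher with 50 µM alone (373, 300.3 and 352 FPKM) than with PE plus 50 µM (log2 change -0.73 ± 0.17 for PE plus 50 µM over 50 µM alone, adjusted p = 0.00982). Slc38a3, a glutamine transporter, averaged 19.9 ± 1.95 FPKM with PE plus 50 µM and 0.823 ± 0.294 FPKM in Vehicle (3.53), and Gcat, which splits 2-amino-3-ketobutyrate in threonine breakdown, 34.6 ± 2.14 and 1.93 ± 0.887 FPKM (3.64). Gcat shares its locus with another row, so its value is uncertain. Sept6, a septin of the cytoskeleton, averaged 74.6 ± 12.5 FPKM with PE plus 50 µM and 5.99 ± 0.425 FPKM in Vehicle (3.42). The other 9 of these 10 genes were higher with PE plus 50 µM than with 50 µM alone as well, with adjusted p from 1.1e-05 (Gstk1) to 0.032 (Gcat). All 10 were chosen for high values in these same PE plus 50 µM libraries. The count is therefore given as a description, beside 9.31% of all rows higher in that comparison.

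Among the falls, Tmem71, a transmembrane protein of little known function (rn5 chr7:107207597-107331585), had 0.846, 0.372 and 1.15 FPKM with PE plus 50 µM against 21.2, 29.98 and 23.7 FPKM in Vehicle (-3.87 ± 0.41, adjusted p = 8.53e-07). Levels in PE, 17.3, 34.2 and 25.9 FPKM, overlapped Vehicle, and those with 50 µM alone, 0.811, 1.12 and 1.54 FPKM, overlapped PE plus 50 µM. Dhrs7c, a dehydrogenase of the sarcoplasmic reticulum (rn5 chr10:54098499-54116883), had 1.35, 1.39 and 2.77 FPKM with PE plus 50 µM against 23.9, 27.2 and 43.9 FPKM in Vehicle (-3.51 ± 0.33, adjusted p = 2.31e-07). It was lower in both single treatments too, with 5.23, 3.03 and 6.24 FPKM in PE and 9.82, 17.5 and 9.67 FPKM with 50 µM alone, and lower with both agents than with either (adjusted p = 0.0146 against PE and 0.000317 against 50 µM alone).

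Rapsn, which clusters acetylcholine receptors, followed the same order: 3.02, 2.46 and 2.86 FPKM with PE plus 50 µM, 6.700, 8.15 and 9.14 with PE, 7.596, 7.73 and 7.12 with 50 µM alone and 25.4, 28.6 and 28.9 in Vehicle (-2.92 ± 0.12 against Vehicle, adjusted p = 7.94e-11). Its groups with both agents, with 1 agent and with neither did not overlap. Ptgfr, the receptor of prostaglandin F2alpha, had 18.4, 13.6 and 24.5 FPKM with PE plus 50 µM against 143, 168 and 159.9 FPKM in Vehicle (-3.03 ± 0.19, adjusted p = 3.61e-09). Corin, the protease that activates pro-atrial natriuretic peptide, had 0.903, 0.486 and 1.69 FPKM against 12.1, 11.7 and 18.7 FPKM in Vehicle (-2.92 ± 0.24, adjusted p = 4.45e-08). Corin had 14.3, 9.42 and 14.96 FPKM in PE, overlapping Vehicle, and 1.09, 0.882 and 0.923 FPKM with 50 µM alone, so it was low in both groups at 50 µM.

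Gja5, connexin 40 of the atria and conduction system, averaged 4.13 ± 0.985 FPKM with PE plus 50 µM and 36.7 ± 3.11 FPKM in Vehicle (-2.89). Atp6ap1l, a gene related to an accessory subunit of the proton pump, averaged 0.407 ± 0.0546 and 10.98 ± 3.28 FPKM (-3.05). Genes of dividing cells stood here as well: Fignl1, a DNA repair factor, averaged 2.46 ± 0.547 FPKM with PE plus 50 µM and 26.1 ± 4.46 FPKM in Vehicle (-2.97), and Ns5atp9, the PCNA-associated factor, 6.53 ± 3.17 and 57.4 ± 3.57 FPKM (-3.06, locus shared with another row). Myh7, the slow myosin heavy chain, completes the 10 and is described with the muscle genes.

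**Figure D2:**
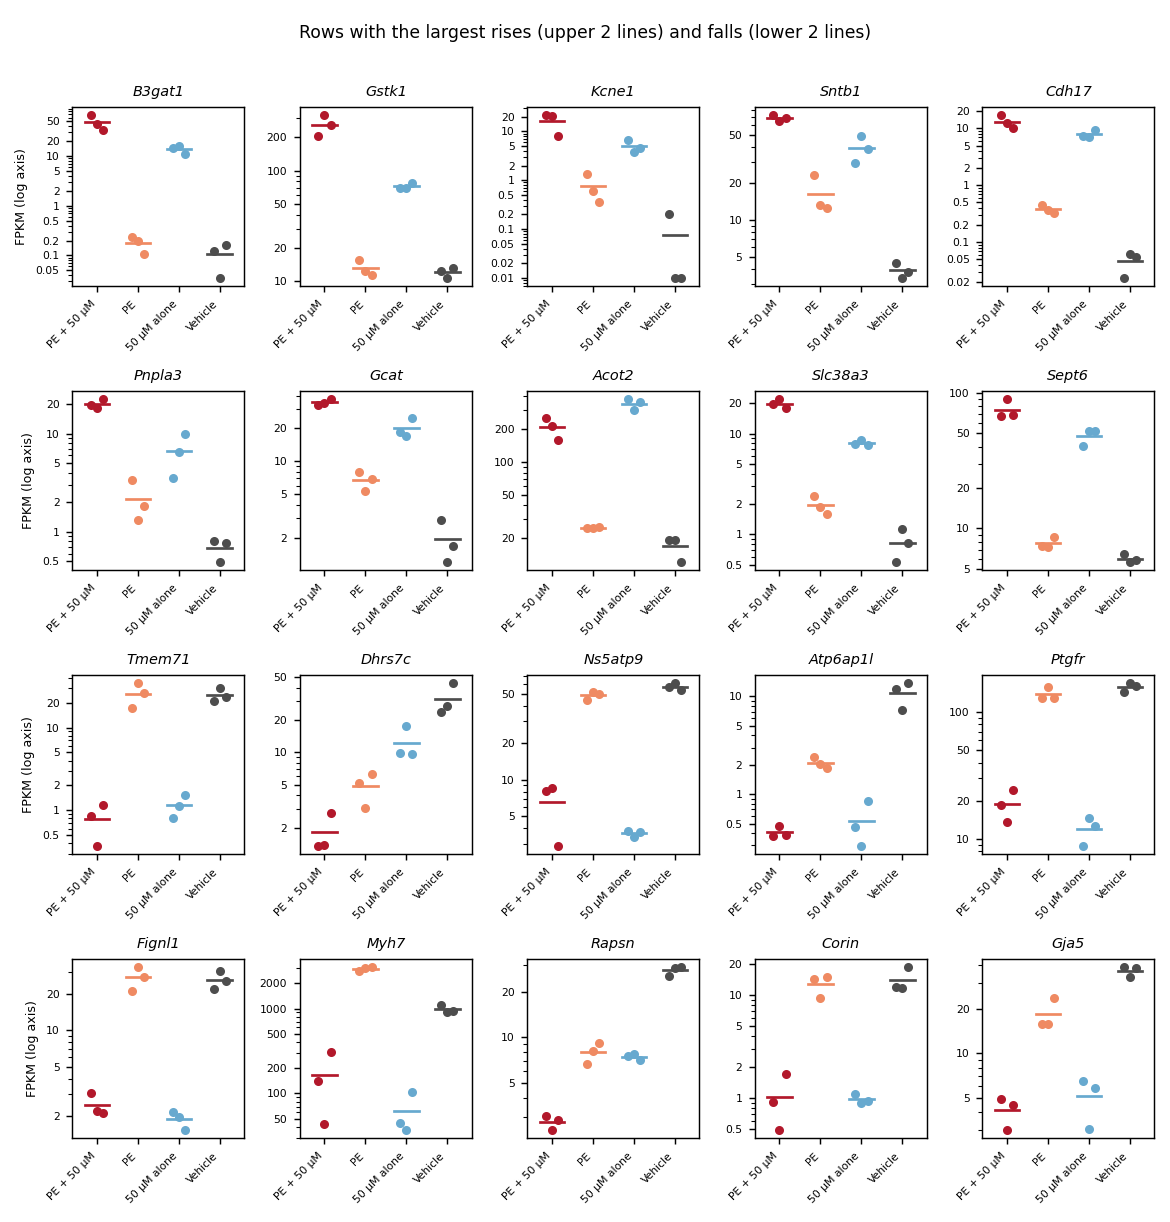
FPKM (log axis) of the 10 largest rises (upper 2 lines) and the 10 largest falls (lower 2 lines) in each library of PE plus 50 µM, PE, 50 µM alone and Vehicle, with bars at the group means. In 20 of 20 panels the PE plus 50 µM points and the Vehicle points do not overlap, which was a condition of the choice, and in panels such as Tmem71 and Ptgfr the PE points sit with Vehicle.

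Genes that PE alone moves show how far stimulated cells under the inhibitor were from the unstimulated level. In PE over Vehicle 30.6% of rows were called (17.9% higher, 12.7% lower). Of the 8 genes with the largest rises there, 4 remained higher under PE plus 50 µM by more than 1 on the log2 scale, and 3 did not differ from Vehicle by the test. Acta1 (rn5 chr19:67389898-67392911) had 1534, 1627 and 1309 FPKM with PE plus 50 µM, 3395, 3002 and 2837 with PE, 1333, 1683 and 1396 with 50 µM alone and 219, 169.8 and 155 in Vehicle. That is 3.04 ± 0.18 over Vehicle (adjusted p = 1.92e-09) and -1.05 ± 0.18 against PE (adjusted p = 0.000109). PE plus 50 µM and 50 µM alone overlapped, far above each Vehicle library.

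Nppa, atrial natriuretic peptide (rn5 chr5:168466308-168467618), had 29706, 31764 and 26219 FPKM with PE plus 50 µM, 32018, 26212 and 27488 with PE, 15582, 13803 and 12171 with 50 µM alone and 9359, 4409 and 1535 in Vehicle. It stood 2.87 ± 0.45 above Vehicle (adjusted p = 4.43e-05) and 0.03 ± 0.45 from PE (adjusted p = 0.958), a difference smaller than its SE. Nppb, brain natriuretic peptide (rn5 chr5:168454330-168455633), had 3451, 3929 and 3027 FPKM with PE plus 50 µM, 5434, 5318 and 4911 with PE, 1254, 1838 and 1147 with 50 µM alone and 923, 468 and 295 in Vehicle (2.77 ± 0.33 over Vehicle, adjusted p = 2.16e-06). Both natriuretic peptides were scattered in Vehicle, where replicate 1 was the highest and replicate 3 the lowest. Fhl1, a LIM protein of the sarcomere that senses stretch, had 1004, 1293 and 1050.3 FPKM with PE plus 50 µM, 2739, 2757 and 2469 with PE and 449.7, 342 and 368 in Vehicle (1.53 ± 0.14 over Vehicle, adjusted p = 1.62e-07).

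The genes not called against Vehicle under both agents were Xirp2, Tceal7 and Sypl2. Xirp2, a Xin-repeat protein that binds actin at cell junctions, had 29.1, 21.8 and 24.2 FPKM with PE plus 50 µM, 235, 262 and 198 with PE and 43.1, 22.9 and 21.3 in Vehicle (-0.15 ± 0.26 over Vehicle, adjusted p = 0.638). Tceal7, a gene of the transcription elongation factor A-like family, had 0.638, 0.673 and 1.21 FPKM with PE plus 50 µM, 18.7, 25.04 and 27.9 with PE and 2.37, 0.87 and 0.784 in Vehicle (-0.30 ± 0.30, adjusted p = 0.398). Sypl2, mitsugumin 29 of the triad membrane, had 1.73, 3.23 and 3.08 FPKM with PE plus 50 µM, 26.4, 32.05 and 29.9 with PE and 4.34, 3.14 and 2.74 in Vehicle (-0.27 ± 0.21, adjusted p = 0.276). In these 3 genes PE plus 50 µM overlapped Vehicle and lay far below each PE library. Scn3b, a beta subunit of the sodium channel, was at the edge of the test: 6.57, 4.99 and 3.42 FPKM with PE plus 50 µM against 5.02, 2.296 and 2.02 FPKM in Vehicle (0.58 ± 0.24, adjusted p = 0.0473), and without PE plus 50 µM replicate 1 the adjusted p was 0.206.

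Of the 8 genes with the largest falls in PE, 7 were called lower with PE plus 50 µM than in Vehicle. For these 8 and the 8 rises, the choice and the values with both agents rest on the same Vehicle libraries, so the counts are given as descriptions, beside 33.2% of all rows higher and 30.1% lower. Igfbp3, a binding protein of insulin-like growth factors, had 12.4, 12.6 and 12.4 FPKM with PE plus 50 µM, 10.3, 10.5 and 10.9 with PE, 35.2, 30.95 and 36.8 with 50 µM alone and 44.6, 37.2 and 58.1 in Vehicle (-1.80 ± 0.14 over Vehicle, adjusted p = 2.94e-08). Its level with both agents lay near that with PE and below that with the inhibitor alone. Map2k6, a kinase upstream of p38, had 0.796, 1.83 and 1.77 FPKM against 5.77, 6.14 and 9.17 FPKM in Vehicle (-1.71 ± 0.27, adjusted p = 3.75e-05). Adm, adrenomedullin, fell by less (-1.08 ± 0.19, adjusted p = 0.000118), as did Angptl4, a secreted inhibitor of lipoprotein lipase (-0.94 ± 0.22, adjusted p = 0.00146). Gnb3, a G protein beta subunit, had 7.63, 4.89 and 4.28 FPKM with PE plus 50 µM, 2.47, 2.84 and 1.68 with PE, 33.5, 26.9 and 24.9 with 50 µM alone and 12.1, 8.63 and 10.05 in Vehicle, so that the group of both agents lay between PE and Vehicle and the inhibitor alone lay above Vehicle (-0.79 ± 0.20 over Vehicle, adjusted p = 0.00228). Cxcr4, a chemokine receptor, had 4.16, 9.31 and 2.09 FPKM with PE plus 50 µM against 6.51, 9.12 and 9.97 FPKM in Vehicle and was not called (-0.78 ± 0.35, adjusted p = 0.0602), whereas with the replicate number as a block its adjusted p was 0.0185 and without PE plus 50 µM replicate 2 it was 0.00275.

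**Figure D3:**
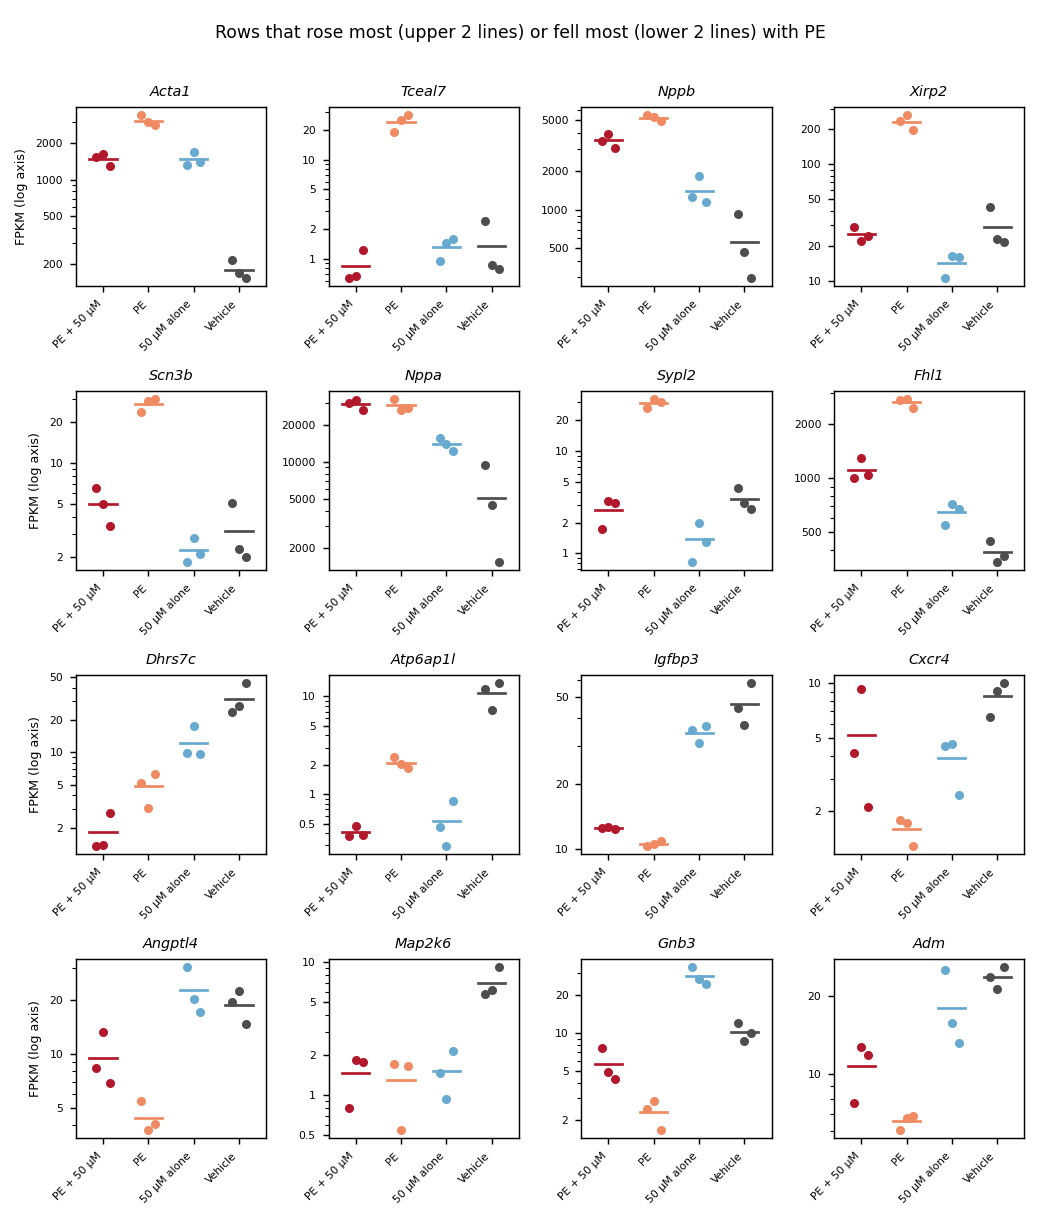
FPKM (log axis) in each library of PE plus 50 µM, PE, 50 µM alone and Vehicle for the 8 genes that rose most (upper 2 lines) and the 8 that fell most (lower 2 lines) in PE over Vehicle, with bars at the group means. Nppa at 26219 to 31764 FPKM with PE plus 50 µM overlaps PE, Acta1 lies between PE and Vehicle, and Xirp2, Tceal7 and Sypl2 overlap Vehicle.

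The 18 tested fetal and hypertrophic genes were split evenly, 7 higher and 7 lower, with a median log2 change of -0.12. The median was -0.41 with quantile normalization (6 higher, 8 lower). It was -0.21 without PE plus 50 µM replicate 1, 0.05 without Vehicle replicate 1, -0.22 without Vehicle replicate 2 and -0.32 without Vehicle replicate 3. Besides the peptides, Acta1 and Fhl1, the higher genes included Ankrd1, a stretch-responsive titin partner, at 4901, 5801 and 4629 FPKM with PE plus 50 µM against 2555, 2294 and 2042 FPKM in Vehicle (1.15 ± 0.17, adjusted p = 2.92e-05). The lower genes were led by Myh7 (rn5 chr15:37521020-37542688), with 141, 43.1 and 312 FPKM with PE plus 50 µM, 2782, 3019 and 3063 with PE, 44.4, 37.1 and 104 with 50 µM alone and 1089, 916 and 935 in Vehicle (-2.97 ± 0.50, adjusted p = 7.77e-05). Each library at 50 µM, with or without PE, was below each Vehicle library. The smooth muscle genes Tagln and Acta2, counted here as part of the fetal programme, fell too: Acta2 had 813, 773 and 836 FPKM against 2167, 1945 and 2594 FPKM in Vehicle (-1.46 ± 0.18, adjusted p = 3.61e-06), and Tagln had 1005, 918 and 946 FPKM against 2808, 2404 and 3214 FPKM (-1.54 ± 0.18, adjusted p = 2.02e-06). Genes of the fetal list therefore stood on both sides of Vehicle in the same libraries. Their shares were not far from those of all rows (33.2% higher, 30.1% lower). Tagln and Acta2 are also counted among the smooth muscle and pericyte markers, and the part of those cells in their falls was not tested.

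Myh6, the fast myosin heavy chain of the adult rodent ventricle (rn5 chr15:37492598-37516191), had 926, 1081 and 889 FPKM with PE plus 50 µM, 1175, 200.1 and 77.1 with PE, 819, 1341 and 776 with 50 µM alone and 397, 240.4 and 149 in Vehicle (1.98 ± 0.69, adjusted p = 0.0194). The call was lost without PE plus 50 µM replicate 2 (adjusted p = 0.0525) or without Vehicle replicate 3 (0.0811). PE libraries of this gene were scattered over more than the distance between the compared groups. Myh6 and Myh7 lie side by side and are so alike that reads may have been divided between them, which makes both values uncertain. Of the sarcomere genes, 8 of 21 rose and 4 fell (median 0.23), but with quantile normalization 5 rose and 8 fell (median -0.01), so no direction is given for the list. Without PE plus 50 µM replicate 2 the median was 0.14. Actc1, cardiac alpha-actin, had 10896, 13319.6 and 10747 FPKM with PE plus 50 µM against 4591, 4137 and 3850.2 FPKM in Vehicle (1.47 ± 0.14, adjusted p = 3.45e-07). Tpm1, alpha-tropomyosin, rose by 1.07, whereas Tnni1, the fetal slow troponin I, had 246, 230.1 and 355 FPKM against 652, 858 and 983 FPKM (-1.59 ± 0.35, adjusted p = 0.000864). Tnni3, the adult troponin I, rose by 0.89 (adjusted p = 4.21e-05), and Mybpc3, myosin-binding protein C, fell (-0.92 ± 0.11, adjusted p = 2.19e-06).

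**Figure D4:**
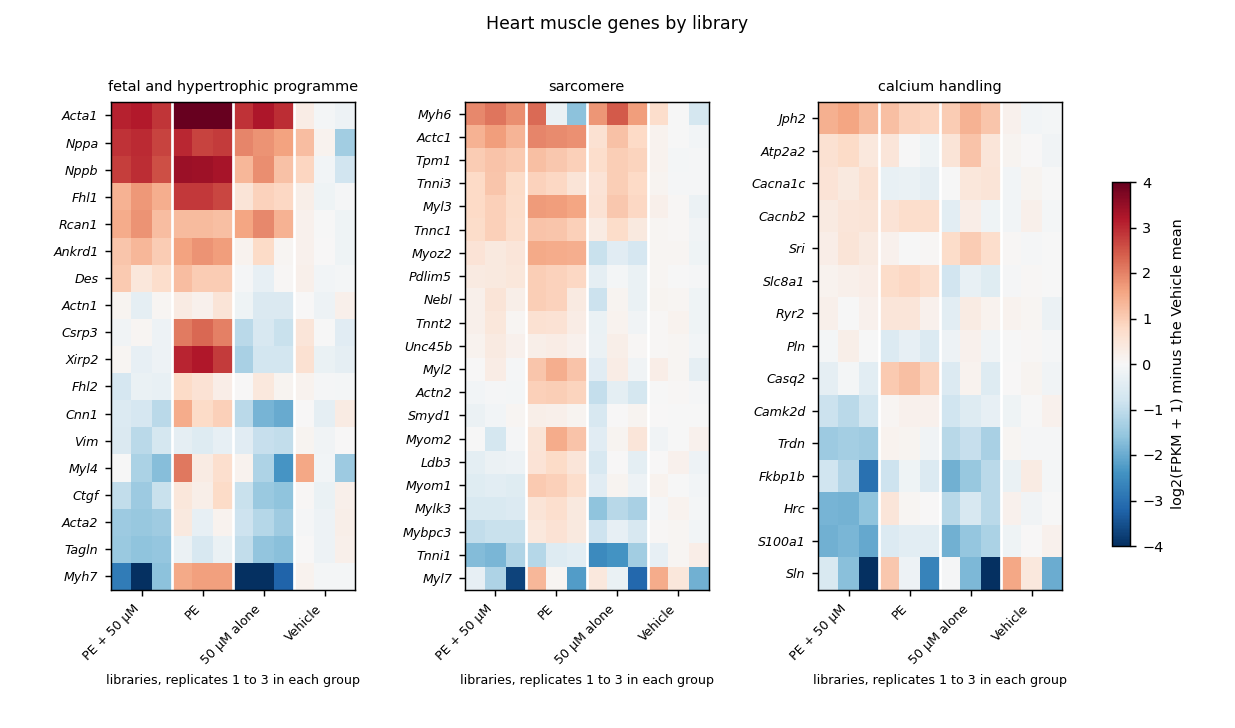
Log2(FPKM + 1) of each library minus the Vehicle mean (color, red above and blue below, limits -4 and 4) for the tested genes of the fetal programme, the sarcomere and calcium handling (rows), in 3 libraries each of PE plus 50 µM, PE, 50 µM alone and Vehicle (columns). Acta1, Nppa and Nppb are red and Myh7 is blue in each PE plus 50 µM column, while the sarcomere list as a whole changes its balance of rises and falls with quantile normalization.

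The 2 alpha-actins that rose are shown with their promoters, because the CArG box, the binding element of serum response factor, is found there by its letters. Sequences are from RefSeq (GRCr8) and run 5′ to 3′ on the gene's strand from 250 bases before to 50 after the start. Capitals mark the CArG box, which reads as a match on both strands at the same place. The Acta1 window is chr19:68784145-68784444 on the minus strand, with the box 94 bases before the start. The Actc1 window is chr3:121271778-121272077 on the minus strand, and there the box lies after the start, beginning at base 3.
Acta1: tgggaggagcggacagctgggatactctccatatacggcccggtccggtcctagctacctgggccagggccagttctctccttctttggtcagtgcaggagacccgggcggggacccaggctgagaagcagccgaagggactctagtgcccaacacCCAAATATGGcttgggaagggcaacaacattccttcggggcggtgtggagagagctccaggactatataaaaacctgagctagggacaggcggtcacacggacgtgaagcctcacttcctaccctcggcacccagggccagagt
Actc1: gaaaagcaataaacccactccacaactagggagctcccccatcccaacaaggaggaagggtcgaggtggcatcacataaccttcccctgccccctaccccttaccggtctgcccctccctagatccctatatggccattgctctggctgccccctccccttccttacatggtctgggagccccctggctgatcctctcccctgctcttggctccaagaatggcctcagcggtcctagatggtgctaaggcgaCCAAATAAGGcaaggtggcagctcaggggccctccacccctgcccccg
A CArG box was found in 3 of 14 promoters of the fetal list and 4 of 18 of the sarcomere list, against 1.64% of 27457 promoters in the RefSeq table and 1.29% of the 8014 that belong to tested rows. Of the genes with a match in these lists, Acta1, Fhl1, Actc1 and Myl3 were higher and Fhl2 was lower. Ldb3 and Nebl were not called. A match describes letters and does not show binding.

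Calcium-handling genes were split, with 5 of 15 higher and 5 lower, near the shares of all rows (33.2% higher and 30.1% lower). Their median was 0.06, and -0.42 with quantile normalization, where 2 were higher and 7 lower. The median was also slightly below 0 without PE plus 50 µM replicate 2 (-0.03) or Vehicle replicate 3 (-0.01). S100a1, a calcium sensor of the sarcomere and reticulum, had 26.9, 29.4 and 24.7 FPKM with PE plus 50 µM against 93.4, 106 and 120.3 FPKM in Vehicle (-1.94 ± 0.14, adjusted p = 1.29e-08). Hrc, the histidine-rich calcium-binding protein of the reticulum, had 10.4, 10.3 and 12.6 FPKM against 45.4, 36.5 and 39.98 FPKM (-1.78 ± 0.15, adjusted p = 5.3e-08). Jph2, which ties the reticulum to the T-tubule, went the other way, with 243, 276 and 221 FPKM against 104, 85.1 and 85.3 FPKM (1.43 ± 0.13, adjusted p = 1.48e-07). Atp2a2, the calcium pump SERCA2, had 997, 1097 and 875 FPKM against 709, 653 and 593 FPKM (0.60 ± 0.19, adjusted p = 0.0124). Its call was lost with quantile normalization (adjusted p = 0.248) and without PE plus 50 µM replicate 2 (0.0502).

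Among ion channels and gap junction genes, 3 of 16 rose and 7 fell (median -0.32, and -0.14 without PE plus 50 µM replicate 2). Kcnj2, the inward rectifier that sets the resting potential, had 5.57, 6.35 and 6.895 FPKM with PE plus 50 µM against 15.02, 17.2 and 19.6 FPKM in Vehicle (-1.33 ± 0.20, adjusted p = 2.94e-05). Kcnk3, a leak potassium channel, and Hcn2, a pacemaker channel, rose by 1.01 and 0.94. Cardiac transcription factors rose in 9 of 17 cases and fell in 2 (median 0.24, and 0.09 with quantile normalization), and 5 rose without PE plus 50 µM replicate 2. Esrra, a nuclear receptor of mitochondrial genes, averaged 117 ± 10.8 FPKM with PE plus 50 µM and 47.7 ± 0.866 FPKM in Vehicle (1.28, locus shared with another row), and Irx4, a factor of ventricular identity, 15.5 ± 0.671 and 44.6 ± 9.597 FPKM (-1.45).

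Adra1a, a receptor that PE activates, and Rgs2 were higher, while Adra1b, another alpha1-adrenergic receptor, was lower. Of 12 genes of adrenergic receptors and RGS proteins, 6 rose and 3 fell (median 0.36), with none called lower without PE plus 50 µM replicate 2 and 1 without Vehicle replicate 3. The 3 lower genes, named after their values were seen, were Gnaq, Rgs3 and Adra1b (log2 change -0.35 to -0.49). Adra1a, an alpha1-adrenergic receptor, had 20.3, 17.9 and 27.9 FPKM with PE plus 50 µM, 16.3, 15.4 and 19.1 with PE, 8.99, 10.8 and 17.7 with 50 µM alone and 5.41, 6.49 and 11.1 in Vehicle (1.44 ± 0.25, adjusted p = 9.33e-05). Rgs2, which shuts off the G protein of that receptor, had 42.2, 51.8 and 42.3 FPKM with PE plus 50 µM, 40.8, 30.4 and 25.4 with PE, 10.8, 10.4 and 7.63 with 50 µM alone and 11.4, 14.7 and 17.8 in Vehicle (1.58 ± 0.20, adjusted p = 5.5e-06, locus shared with another row). Rgs2 with 50 µM alone was thus below each Vehicle library, and the libraries with PE stood above both.

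Senexin A acts on the activity of its kinase, and 1 gene of 6 in the Mediator kinase module was higher and 2 were lower (median 0.05, and -0.02 to 0.08 when 1 library was left out; none lower without PE plus 50 µM replicate 2). Cdk8 had 17.2, 17.7 and 13.03 FPKM with PE plus 50 µM against 13.5, 12.6 and 14.5 FPKM in Vehicle and was not called (0.22 ± 0.11, adjusted p = 0.104), though it was without PE plus 50 µM replicate 3 (0.00916). Its paralog Cdk19 had 5.27, 4.34 and 6.72 FPKM against 7.87, 8.05 and 8.895 FPKM (-0.54 ± 0.17, adjusted p = 0.0111), a call lost without PE plus 50 µM replicate 2 (0.0634). Ccnc, their cyclin, averaged 22.4 ± 2.796 FPKM with PE plus 50 µM and 16.4 ± 0.522 FPKM in Vehicle (0.41 ± 0.09, adjusted p = 0.000844). Med13 was lower by a change that several alternatives did not call (-0.30 ± 0.11, adjusted p = 0.0258), and Med12 was not called (-0.11 ± 0.08, adjusted p = 0.229). Messenger levels of this module do not report its kinase activity.

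Genes of the integrated stress response were higher in 21 of 22 tested cases and lower in none, with a median log2 change of 1.89. Asns, asparagine synthetase (rn5 chr4:33608890-33626245), had 226, 233 and 242 FPKM with PE plus 50 µM, 31.8, 22.1 and 35.97 with PE, 172, 198 and 239 with 50 µM alone and 28.3, 26.1 and 40.7 in Vehicle (2.87 ± 0.23 over Vehicle, adjusted p = 3.56e-08). Trib3, a pseudokinase that feeds back on ATF4 (rn5 chr3:154162206-154167791), had 82.1, 94.7 and 97.96 FPKM with PE plus 50 µM against 12.8, 9.05 and 23.99 FPKM in Vehicle (2.61 ± 0.41, adjusted p = 4.71e-05). Gdf15, a secreted stress hormone, had 181, 195 and 194 FPKM against 43.5, 37.2 and 40.95 FPKM (2.20 ± 0.21, adjusted p = 3e-07). In Asns PE overlapped Vehicle, and both groups at 50 µM stood well above them. Against 50 µM alone, 0 of the 22 genes were higher with PE plus 50 µM and 1 was lower, where 9.31% of all rows were higher and 5.01% lower. Against PE, 21 were higher, where 29.3% of all rows were higher and 27.4% lower.

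Amino acid supply and tRNA charging moved in the same direction. Of the serine, proline and one-carbon genes 9 of 12 rose and 1 fell (median 1.53). Mthfd2, the mitochondrial folate dehydrogenase, had 193, 217 and 228 FPKM with PE plus 50 µM against 27.5, 22.7 and 32.2 FPKM in Vehicle (2.92 ± 0.19, adjusted p = 6.77e-09). Shmt2, which moves a carbon from serine to folate, had 210.2, 223 and 211 FPKM against 33.9, 36.1 and 38.6 FPKM (2.54 ± 0.13, adjusted p = 4.21e-10), and Pycr1, the last enzyme of proline synthesis, averaged 62.96 ± 2.42 and 9.55 ± 0.951 FPKM (2.60). Cytosolic aminoacyl-tRNA synthetases rose in 19 of 20 cases with none lower (median 1.39), led by Wars for tryptophan at 187, 201 and 199.7 FPKM with PE plus 50 µM against 34.8, 33.6 and 37.3 FPKM in Vehicle (2.44 ± 0.12, adjusted p = 3.16e-10) and Gars for glycine at 275, 305 and 292 against 64.8, 67.2 and 67.8 FPKM (2.11 ± 0.12, adjusted p = 1.73e-09). All 20 tested ribosome biogenesis genes rose, by 0.34 to 1.28 (median 0.61), among them Wdr12, of the complex that processes pre-rRNA, at 59.005, 58.7 and 56.6 FPKM against 28.8, 22.98 and 21.95 FPKM in Vehicle (1.22 ± 0.12, adjusted p = 2.57e-07). With quantile normalization 16 synthetases and 18 biogenesis genes were called higher.

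Trib3 and Pycr1 are shown because their promoters hold the letters TGATGNAA, a core of the element that ATF4 and its partners bind, marked in capitals (in Trib3 on the opposite strand). Both windows are from RefSeq, GRCr8, on the minus strand: chr3:161275484-161275783 for Trib3 and chr10:106420763-106421062 for Pycr1.
Trib3: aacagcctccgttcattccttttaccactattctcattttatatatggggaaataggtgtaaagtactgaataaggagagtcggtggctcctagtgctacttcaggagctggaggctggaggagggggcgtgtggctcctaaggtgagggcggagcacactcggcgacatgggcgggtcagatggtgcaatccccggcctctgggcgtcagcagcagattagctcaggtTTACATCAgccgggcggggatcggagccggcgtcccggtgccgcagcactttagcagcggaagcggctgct
Pycr1: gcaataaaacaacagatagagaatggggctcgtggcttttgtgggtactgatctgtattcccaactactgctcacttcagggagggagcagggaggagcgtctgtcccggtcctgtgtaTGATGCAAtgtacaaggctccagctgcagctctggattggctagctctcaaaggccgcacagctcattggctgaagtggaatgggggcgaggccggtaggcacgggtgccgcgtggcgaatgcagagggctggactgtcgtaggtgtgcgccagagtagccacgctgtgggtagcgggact
Searched on both strands, the motif was found in 4 of 20 promoters of the stress response list, 2 of 9 of the serine, proline and one-carbon list and 7 of 17 of the synthetases, against 3.82% of all promoters in the table and 1.75% of those of tested rows.

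Chaperone and folding genes of the endoplasmic reticulum did not, as a list, rise with the stress response list. Of 21 chaperones and folding genes, 4 rose and 11 fell (median -0.32), and 1 rose and 15 fell with quantile normalization. Without PE plus 50 µM replicate 1 or 3, or Vehicle replicate 1 or 2, 2 were called higher. Derl3, of the degradation channel, had 1.58, 0.639 and 1.68 FPKM with PE plus 50 µM against 9.77, 6.67 and 7.995 FPKM in Vehicle (-2.01 ± 0.29, adjusted p = 1.73e-05). Pdia4, a disulfide isomerase, had 40.02, 39.6 and 47.3 FPKM against 109, 112 and 125 FPKM (-1.43 ± 0.11, adjusted p = 1.82e-08). Dnajb9, a co-chaperone, rose, with 93.7, 80.8 and 89.4 FPKM against 41.6, 40.98 and 52.6 FPKM (0.96 ± 0.15, adjusted p = 3.19e-05). Cytosolic and mitochondrial heat shock genes rose in 14 of 18 cases and fell in 2 (median 0.45; 8 and 2 with quantile normalization). Hspb8, a small heat shock protein of muscle, averaged 332 ± 31.7 FPKM with PE plus 50 µM and 113 ± 22.9 FPKM in Vehicle (1.56), and Hspe1, the mitochondrial co-chaperonin, 741 ± 128 and 249 ± 28.5 FPKM (1.56).

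Glutathione genes and NRF2 targets were higher in 15 of 27 cases and lower in 7 (median 0.39). Txnrd1, thioredoxin reductase, had 384, 426 and 308 FPKM with PE plus 50 µM against 84.2, 76.6 and 79.3 FPKM in Vehicle (2.19 ± 0.15, adjusted p = 7.95e-09, locus shared with another row). Srxn1, sulfiredoxin, had 85.8, 113 and 77.3 FPKM against 35.8, 31.4 and 31.03 FPKM (1.45 ± 0.17, adjusted p = 2.67e-06). Gsta1, an alpha-class glutathione transferase, went down, with 17.000, 30.2 and 22.6 FPKM against 84.95, 75.1 and 80.8 FPKM (-1.78 ± 0.18, adjusted p = 3.7e-07), so the 2 transferases Gstk1 and Gsta1 moved in opposite directions.

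Sterol synthesis was higher throughout: 23 of 23 tested genes rose, by 0.46 to 2.16 on the log2 scale (median 1.66). Cyp51, lanosterol demethylase (rn5 chr4:27078789-27097242), had 326, 369.7 and 423 FPKM with PE plus 50 µM, 256, 253 and 268 with PE, 94.4, 151 and 209.5 with 50 µM alone and 82.2, 80.2 and 84.4 in Vehicle (2.16 ± 0.19 over Vehicle, adjusted p = 8.43e-08). Mvd, of the mevalonate pathway, had 61.3, 71.9 and 83.3 FPKM with PE plus 50 µM, 36.8, 33.5 and 38.95 with PE, 19.7, 31.05 and 40.8 with 50 µM alone and 17.6, 18.8 and 17.5 in Vehicle (1.94 ± 0.18, adjusted p = 1.89e-07). With 50 µM alone replicate 1 was low and replicate 3 high in both genes, and each PE plus 50 µM library lay above each of them. Tested directly, 22 of the 23 genes were higher with PE plus 50 µM than with 50 µM alone, where 9.31% of all rows were. Against PE, 8 were higher and 2 lower, a share of higher genes near that of all rows (29.3%). Fatty acid synthesis rose in 10 of 12 cases (median 0.88), with Scd1, stearoyl-CoA desaturase, at 122, 122 and 167 FPKM with PE plus 50 µM, 47.7, 38.8 and 50.7 with PE, 15.97, 33.8 and 64.9 with 50 µM alone and 16.1, 10.5 and 12.5 in Vehicle (3.30 ± 0.35, adjusted p = 7.26e-07). Acss2, acetyl-CoA synthetase, averaged 115 ± 14.2 FPKM with PE plus 50 µM and 23.5 ± 1.56 FPKM in Vehicle (2.24). The letters TCACNCCAC, a form of the sterol element, were found in none of the 16 promoters of the sterol list and in 1.13% of all promoters, which says only that this spelling is not in these windows.

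Glucose entry and its first steps were among the larger metabolic changes, with 14 of 22 genes higher and 3 lower (median 0.83). Slc2a1, the glucose transporter GLUT1 (rn5 chr5:141964116-141992634), had 137, 118 and 142 FPKM with PE plus 50 µM, 24.001, 26.03 and 20.6 with PE, 60.5, 60.7 and 61.95 with 50 µM alone and 30.97, 23.2 and 21.2 in Vehicle (2.37 ± 0.12 over Vehicle, adjusted p = 5.84e-10). PE overlapped Vehicle in this gene, 50 µM alone lay above them and PE plus 50 µM above that (adjusted p = 2.64e-05 against 50 µM alone). Hk2, hexokinase 2, had 53.6, 44.3 and 39.7 FPKM with PE plus 50 µM against 10.4, 7.42 and 6.29 FPKM in Vehicle (2.39 ± 0.23, adjusted p = 2.99e-07), and Pfkp, platelet-type phosphofructokinase, 385, 367 and 323 against 95.2, 77.4 and 69.7 FPKM (2.14 ± 0.19, adjusted p = 1.24e-07). Aldoc, the brain-type aldolase, fell, with 6.38, 4.64 and 8.71 FPKM against 30.2, 38.05 and 35.1 FPKM (-2.26 ± 0.19, adjusted p = 8.44e-08).

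Mitochondrial genes were mostly higher by smaller amounts. Oxidative phosphorylation genes rose in 24 of 29 cases and fell in 1 (median 0.75; 18 and 3 with a median of 0.30 under quantile normalization). Cycs, cytochrome c, had 1271, 1635 and 1138 FPKM with PE plus 50 µM against 533, 546 and 406 FPKM in Vehicle (1.44 ± 0.18, adjusted p = 3.54e-06), and Sdhb, of complex II, 481, 630.1 and 451 against 236, 239 and 201 FPKM (1.19 ± 0.14, adjusted p = 2.16e-06). The gene that fell was Cox8b, the muscle form of a complex IV subunit, named after its values were seen, with 426, 550.4 and 493 FPKM against 955, 1002 and 835 FPKM (-0.93). Of the tricarboxylic acid cycle and pyruvate dehydrogenase genes, 12 of 16 rose and 1 fell (median 0.55; 8 and 3 with quantile normalization), with Pdha1, of pyruvate dehydrogenase, at 549 ± 36.2 FPKM with PE plus 50 µM and 276 ± 13.7 FPKM in Vehicle (0.99).

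Fat oxidation was divided. Of 17 beta-oxidation genes 9 rose and 4 fell (median 0.29; 5 and 5 with quantile normalization; 6 and 4 with a median of 0.19 without Vehicle replicate 3). Hadhb, of the trifunctional protein for long chains, had 994, 1108 and 845 FPKM with PE plus 50 µM against 385, 357 and 329 FPKM in Vehicle (1.45 ± 0.10, adjusted p = 7.63e-09), while Hadh, the dehydrogenase for shorter chains, had 34.1, 32.02 and 28.3 FPKM against 99.7, 97.7 and 98.2 FPKM (-1.62 ± 0.12, adjusted p = 2.22e-08). Decr1, needed for unsaturated fats, fell too (log2 change -1.60 ± 0.16, adjusted p = 4.99e-07). Of 19 PPAR-responsive lipid genes 12 rose and 5 fell (median 0.43). Acsl1, which activates fatty acids, averaged 375 ± 53.1 FPKM with PE plus 50 µM and 116 ± 29.6 FPKM in Vehicle (1.71), and Fabp3, the heart fatty acid-binding protein, 5383 ± 1694 and 1716 ± 394 FPKM (1.62, locus shared with another row).

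DNA replication genes formed the most uniform fall of the lists described, with 29 of 30 lower and none higher (median -1.19). Mcm6, of the replicative helicase (rn5 chr13:50127491-50152683), had 8.44, 7.15 and 6.15 FPKM with PE plus 50 µM, 28.9, 34.5 and 37.8 with PE, 5.36, 5.198 and 4.397 with 50 µM alone and 39.9, 43.9 and 31.97 in Vehicle (-2.26 ± 0.16 over Vehicle, adjusted p = 1.37e-08). Mcm3 and Mcm5, of the same helicase, changed by -2.08 and -2.01, and Ccne2, cyclin E2, by -2.04. Both groups at 50 µM lay below each library of PE and Vehicle in Mcm6. Of 28 mitosis genes 20 fell and 1 rose (median -0.74). Mki67, the proliferation antigen, had 4.87, 3.798 and 4.72 FPKM with PE plus 50 µM, 18.4, 18.3 and 23.4 with PE, 2.55, 2.16 and 1.66 with 50 µM alone and 15.9, 17.7 and 14.01 in Vehicle (-1.63 ± 0.16, adjusted p = 2.59e-07). Ccna2, cyclin A2, had 15.5, 14.3 and 12.8 FPKM with PE plus 50 µM, 43.7, 51.1 and 56.8 with PE, 6.61, 6.12 and 3.39 with 50 µM alone and 37.2, 40.3 and 29.05 in Vehicle (-1.25 ± 0.18, adjusted p = 2.17e-05). The exception, Cenpa, the centromeric histone, was named after its values were seen: 19.3, 12.3 and 12.7 FPKM with PE plus 50 µM against 7.78, 6.17 and 5.83 FPKM in Vehicle (1.04).

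Replication and mitosis differed in their position against the inhibitor alone. With PE plus 50 µM over 50 µM alone, 27 of 28 mitosis genes were higher (median 0.94), against 6 of 30 replication genes (median 0.30), and none of either was lower, while 9.31% of all rows were called higher and 5.01% lower in that comparison. Over Vehicle, PE had 26 of the 28 mitosis genes higher and none lower, where 17.9% of all rows were higher and 12.7% lower. With 50 µM alone 28 were lower than in Vehicle, where 60.7% of all rows were called (30.5% higher, 30.2% lower). The comparisons of PE and of 50 µM alone with Vehicle share the Vehicle libraries. Against PE, 27 mitosis genes and 29 replication genes were lower with PE plus 50 µM, where 27.4% of all rows were. The AraC given before treatment, which removes cycling cells, was given to each group alike.

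Mcm6 and Mcm5 are shown because their promoters carry a doubled E2F site, spelled TTTNGCGC and searched on both strands. In each the 2 matches, 1 per strand, overlap, and capitals mark the run that both cover. Windows are from RefSeq, GRCr8: chr13:42404303-42404602 on the minus strand for Mcm6 and chr19:13488563-13488862 on the plus strand for Mcm5.
Mcm6: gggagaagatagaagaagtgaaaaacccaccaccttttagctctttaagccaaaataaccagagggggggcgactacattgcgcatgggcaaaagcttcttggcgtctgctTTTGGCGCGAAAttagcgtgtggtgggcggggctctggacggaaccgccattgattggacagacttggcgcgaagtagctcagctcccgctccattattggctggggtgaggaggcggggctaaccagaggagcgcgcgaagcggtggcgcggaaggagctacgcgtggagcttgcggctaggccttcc
Mcm5: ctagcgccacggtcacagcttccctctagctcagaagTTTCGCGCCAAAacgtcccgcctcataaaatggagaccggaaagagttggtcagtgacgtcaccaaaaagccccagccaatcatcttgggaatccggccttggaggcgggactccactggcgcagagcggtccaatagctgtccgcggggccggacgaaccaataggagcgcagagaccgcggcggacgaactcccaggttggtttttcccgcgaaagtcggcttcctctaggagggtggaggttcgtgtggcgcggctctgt
The motif was found in 12 of 24 promoters of the replication list and 1 of 22 of the mitosis list, against 1.37% of all promoters and 2.46% of those of tested rows.

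Immediate early genes, which answer stimuli within minutes, were lower in 12 of 23 cases and higher in 6 after these 48 h (median -0.27). The median was -0.17 without PE plus 50 µM replicate 2 and -0.41 without Vehicle replicate 2, and 8 of 22 were lower without Vehicle replicate 1. Egr1 had 2.53, 1.72 and 2.59 FPKM with PE plus 50 µM against 24.9, 6.604 and 29.9 FPKM in Vehicle (-2.49 ± 0.56, adjusted p = 0.00109), with replicate 2 low in both groups. Klf2 had 4.298, 3.83 and 8.61 FPKM against 32.4, 22.97 and 34.9 FPKM (-2.29 ± 0.29, adjusted p = 5.1e-06), and Cyr61, a secreted target of YAP, 72.5, 44.8 and 74.3 against 211, 180.2 and 254 FPKM (-1.76 ± 0.29, adjusted p = 7.05e-05). Nr4a3, an orphan nuclear receptor, rose, with 4.24, 4.74 and 3.48 FPKM with PE plus 50 µM, 3.85, 3.74 and 2.81 with PE and 0.9, 0.551 and 0.695 in Vehicle (1.58 ± 0.18, adjusted p = 1.49e-06).

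MAP kinase feedback genes were 3 higher and 5 lower of 13 (median 0.01). Its sign was not stable when 1 library was left out, with a range of -0.11 (without PE plus 50 µM replicate 3) to 0.09 (without PE plus 50 µM replicate 2). Dusp4, a phosphatase of nuclear ERK, had 30.6, 19.2 and 18.95 FPKM with PE plus 50 µM, 19.9, 25.5 and 20.1 with PE, 8.57, 6.33 and 4.48 with 50 µM alone and 4.42, 3.07 and 4.85 in Vehicle (2.21 ± 0.21 over Vehicle, adjusted p = 2.78e-07). Etv5, an ETS factor downstream of ERK, had 11.5, 11.9 and 9.91 FPKM with PE plus 50 µM, 11.7, 9.82 and 11.9 with PE, 4.92, 5.84 and 4.72 with 50 µM alone and 4.496, 4.44 and 4.47 in Vehicle (1.14 ± 0.11, adjusted p = 1.96e-07). In both genes the groups with PE overlapped and stood above the groups without it. Dusp1, another phosphatase of the family, was ordered by the inhibitor instead: 21.1, 21.6 and 17.8 FPKM with PE plus 50 µM, 65.97, 48.9 and 49.4 with PE, 21.2, 20.5 and 14.5 with 50 µM alone and 56.8, 47.4 and 57.3 in Vehicle (-1.37 ± 0.14, adjusted p = 5.02e-07).

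Extracellular matrix genes fell in 16 of 22 cases, with none higher (median -1.10). Tnc, tenascin C (rn5 chr5:83890951-83950462), had 10.4, 6.99 and 7.45 FPKM with PE plus 50 µM, 46.9, 33.7 and 35.4 with PE, 13.2, 12.8 and 9.501 with 50 µM alone and 60.4, 49.1 and 56.7 in Vehicle (-2.61 ± 0.20 over Vehicle, adjusted p = 2.26e-08). Fn1, fibronectin, had 104, 75.5 and 123 FPKM against 369, 337 and 440.0 FPKM in Vehicle (-1.93 ± 0.21, adjusted p = 9.09e-07), and Eln, elastin, 42.6, 34.98 and 85.8 against 228, 195 and 466 FPKM (-2.42 ± 0.43, adjusted p = 0.000128). The fibrillar collagen Col1a1 had 233, 198 and 416 FPKM with PE plus 50 µM against 791, 890.2 and 1184 FPKM in Vehicle (-1.81 ± 0.29, adjusted p = 4.59e-05), with replicate 3 the highest of each group. TGF-beta and BMP targets fell in 12 of 18 cases, with none higher (median -0.60), and 1 was higher without PE plus 50 µM replicate 3, without Vehicle replicate 1 or with the replicate block. Tgfbi, a matrix protein induced by TGF-beta, had 2.58, 1.29 and 1.85 FPKM against 12.3, 13.5 and 17.2 FPKM (-2.41 ± 0.16, adjusted p = 7.44e-09).

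Some markers of the cells that make most matrix were lower as well. The collagens Col1a1 and Col3a1 are counted both among the matrix genes and among the fibroblast markers. Fibroblast markers were lower in 6 of 13 cases and higher in none (median -0.67), beside 30.1% of all rows lower. With quantile normalization 4 were called lower, and without Vehicle replicate 3 also 4. Besides the collagens, Ddr2, a collagen receptor, averaged 9.69 ± 1.09 FPKM with PE plus 50 µM and 26.4 ± 5.42 FPKM in Vehicle (-1.35), and Thy1 27.996 ± 9.599 and 67.6 ± 20.6 FPKM (-1.25). Other defining fibroblast genes did not pass, however: Pdgfra had 2.63, 2.01 and 3.705 FPKM with PE plus 50 µM against 2.88, 2.496 and 3.99 FPKM in Vehicle, and Dcn, decorin, 20.3, 33.4 and 89.01 against 24.2, 41.2 and 106 FPKM, both overlapping (chosen after their values were seen). Smooth muscle and pericyte markers were lower in 7 of 12 cases and higher in 2 (median -0.68), and 4 were lower without Vehicle replicate 1 or Vehicle replicate 3. None was called higher without PE plus 50 µM replicate 1 or Vehicle replicate 2. Endothelial markers were lower in 4 of 7 tested cases, for example Flt1, a receptor of VEGF, at 1.32, 1.35 and 1.58 FPKM with PE plus 50 µM against 4.77, 3.57 and 5.09 FPKM in Vehicle (-1.17 ± 0.17, adjusted p = 2.26e-05). Cdh5, Kdr, Vwf, Emcn and Cldn5 were too low to be tested. The part of these cells in the falls of matrix genes was not tested.

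Interferon-responsive genes were lower in 14 of 18 cases and higher in none (median -0.71); 9 were lower with quantile normalization, and 8 of the 11 that pass a filter of 5 FPKM. Irf9, of the interferon-activated factor ISGF3, had 3.35, 2.79 and 3.38 FPKM with PE plus 50 µM against 12.8, 14.2 and 9.301 FPKM in Vehicle (-1.64 ± 0.19, adjusted p = 2.34e-06). Psmb9, an immunoproteasome subunit, had 1.498, 2.95 and 1.53 FPKM against 6.600, 8.58 and 4.81 FPKM (-1.36 ± 0.22, adjusted p = 4.7e-05). NF-kB and inflammatory targets fell in 7 of 14 cases and rose in 3 (median -0.34). Nfkbia, the inhibitor that NF-kB itself induces, had 6.34, 8.04 and 6.92 FPKM with PE plus 50 µM against 20.4, 18.7 and 23.96 FPKM in Vehicle (-1.44 ± 0.11, adjusted p = 1.89e-08). Against the trend of its list, Ccl7, a monocyte chemokine, had 60.9, 40.002 and 22.7 FPKM with PE plus 50 µM, 7.896, 7.97 and 4.15 with PE, 21.1, 13.2 and 8.18 with 50 µM alone and 5.62, 4.39 and 2.84 in Vehicle (2.93 ± 0.39, adjusted p = 7.98e-06). Macrophage markers summed to 24.2 to 261.7 FPKM with PE plus 50 µM and to 43.9 to 135 FPKM in Vehicle, which overlap. Of 8 tested, 1 was called, Aif1, which was lower (-1.11 ± 0.38, adjusted p = 0.0188), a call lost without PE plus 50 µM replicate 1 or 3 or Vehicle replicate 1, and the list's median, -0.11, was 0.43 without PE plus 50 µM replicate 3. The part of these cells in the falls of interferon and NF-kB genes was not tested.

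**Figure D5:**
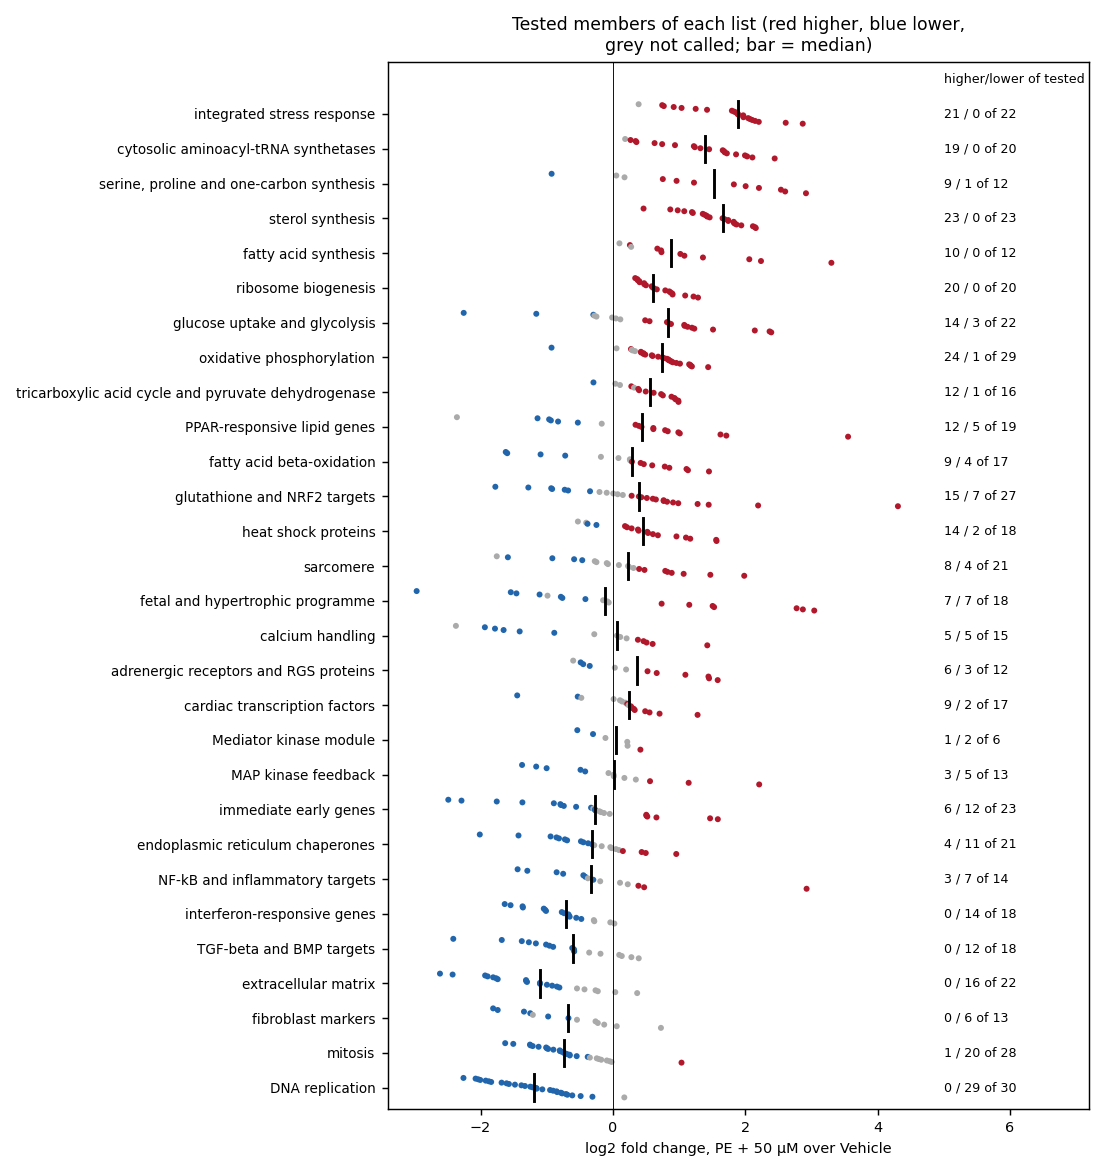
Log2 fold change of PE plus 50 µM over Vehicle (x axis) for each tested member of the lists (y axis), red where higher, blue where lower and grey where not called, with a bar at the list's median and the counts at the right. The stress response, synthetase, sterol and ribosome biogenesis lists lie to the right of 0 with no gene called lower, DNA replication and extracellular matrix have medians left of 0 with none called higher, and the balance of the sarcomere and calcium-handling lists turns with quantile normalization.

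Fewer rows separated PE plus 50 µM from 50 µM alone than from PE. Between PE plus 50 µM and 50 µM alone 1500 rows differed (14.3%, 975 higher and 525 lower), and with the replicate number as a block 2491 did. Without PE plus 50 µM replicate 1 the count was 943. Between PE plus 50 µM and PE 5939 rows differed (56.7%, with 29.3% higher and 27.4% lower), and between PE plus 50 µM and PE plus 10 µM Senexin A, the lower dose in stimulated cells, 4320 did (41.2%, 21.3% higher and 19.9% lower). These comparisons share the PE plus 50 µM libraries. Against the lower dose with PE, the stress response list was higher in 22 of 22 cases and mitosis lower in 27 of 28, while sterol synthesis had 0 genes higher and 1 lower of 23. The first principal component of all libraries, 48.1% of the variance, placed PE plus 50 µM at 33.2 to 42.0 and 50 µM alone at 35.4 to 41.6, PE at -28.5 to -22.7 and Vehicle at -30.2 to -28.3. The second, 21.2% of the variance, set PE plus 50 µM at 5.495 to 12.3 and PE at 15.6 to 22.01, apart from 50 µM alone at -18.5 to -11.1 and Vehicle at -26.9 to -17.0.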

How the data were processed

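Polyadenylated RNA was sequenced from 6 groups of 3 libraries, 18 in all, grouped by their labels. The authors deposited 1 table of FPKM values, 1 column per library and 17303 rows, with 0.01 as its floor (27.4% of values). Bowtie2, Cufflinks and the rn5 build are named, per the submitters' processing notes; versions, annotation, filters and strand use are "not given in the sources used here". Without read counts the depth is unknown, and no counting interval is printed. Rows that share a locus with another row (1881 in all, 1006 of those tested) have uncertain values.

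The 10478 rows that reached 1 FPKM in 3 or more libraries were tested as log2(FPKM + 1), a scale that understates the change of low genes, with limma 3.58.1 in R 4.3.3 (variance trend, 6 group means, 12 residual degrees of freedom) and Benjamini-Hochberg adjustment per comparison at 0.05. The fit was tested on simulated data with independent libraries, so that test does not cover a pairing by replicate number. Levels are mean ± SD of 3 libraries, and list summed levels are over tested members. Tables and figures used Python 3.11.15, pandas 2.3.3, numpy 2.4.6 and matplotlib 3.10.9.

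The comparison, the 43 lists (750 entries, 722 in the table) and the tests were chosen with earlier results of these data known. Named genes followed a rule: the 10 largest rises and falls among called rows whose group mean reached 5 FPKM on 1 side and whose libraries did not overlap, up to 4 called members per list, a fixed panel (Nppa, Nppb, Acta1, Myh6, Myh7, Atp2a2, Ankrd1, Xirp2, Cdk8, Cdk19, Ccnc, Med12 and Med13), and the 8 largest rises and falls in PE. Exceptions are stated.

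The replicate numbers pair libraries across groups. Departures from the group mean had correlations of 0.213 to 0.587 in the 45 pairs of libraries with the same number and of -0.462 to 0.095 in the 90 with different numbers. The labels do not say what the number marks. They do not say either that replicates were separate cultures, so the p-values cover only the spread among these libraries, possibly a technical one. The planned fit had no block. Alternatives were the replicate block, a tested log2 change above 1, array weights, quantile normalization or median-ratio scaling, other filters (none, or 5 FPKM), other pseudocounts (0.1 and 0.5), a fit without the variance trend or on the compared groups alone, and dropping 1 library at a time. Promoters (300 bases, RefSeq, GRCr8) were matched by symbol for 8014 tested rows.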

Additional observations from a re-analysis of the deposited data

How the results depend on the processing

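Of the 183 named genes tested, 177 were called against Vehicle, and none of these 177 changed direction under any alternative. Apart from the minimum fold change, 12 lost the call in at least 1 alternative: across the alternatives that leave out a library 27 of 1098 values lost it and 3 gained it, and across the other settings 12 of 1822 lost it and 3 gained it. A test of a log2 change over 1 left 448 rows against Vehicle (258 higher, 190 lower), 295 against PE (146 and 149), 96 against PE plus 10 µM (43 and 53) and 7 against 50 µM alone (6 and 1). Against 50 µM alone, the replicate block (the pairing by number) called 2491 rows (1481 higher, 1010 lower), and the fit of the compared groups only called 741 (512 and 229). Leaving out 1 library gave 943 to 1312 rows there (635 to 880 higher, 308 to 432 lower), with 943 (635 and 308) without PE plus 50 µM replicate 1, and 6034 to 6341 rows against Vehicle. Against Vehicle the block called 1 more gene higher among TGF-beta targets, macrophage markers and Schwann markers (from none) and 2 macrophage markers lower; it gave Cxcr4, Myl7 and Sln a call and changed no other list count by more than 1.5 times. Depth is unknown, so how far low rows are limited by counting cannot be given.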

Other observations

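Genes of insulin-like growth factors and their binding proteins were lower in 6 of 13 cases and higher in 2 (median -0.44). With quantile normalization 5 were lower and 3 higher (median -0.21), and without Vehicle replicate 3, 4 were lower (median -0.24). Irs2, an adaptor of the insulin receptor, had 69.6, 73.5 and 57.1 FPKM with PE plus 50 µM, 21.4, 14.4 and 17.4 with PE, 37.7, 47.9 and 33.7 with 50 µM alone and 13.2, 7.38 and 10.2 in Vehicle (2.61 ± 0.22, adjusted p = 5.61e-08). Igfbp5 rose as well, with 44.4, 19.9 and 22.003 FPKM against 3.74, 2.25 and 7.47 FPKM in Vehicle (2.46 ± 0.48, adjusted p = 0.000325), while Igfbp6 fell, with 7.91, 10.3 and 22.2 FPKM against 33.4, 39.7 and 66.6 FPKM (-1.78 ± 0.39, adjusted p = 0.000818). The binding proteins thus stood on both sides of Vehicle. Hypoxia targets were 6 higher and 6 lower of 14 (median 0.20): Vegfa, the endothelial growth factor, had 262, 216 and 229 FPKM with PE plus 50 µM against 73.9, 67.5 and 76.9 FPKM in Vehicle (1.68 ± 0.11, adjusted p = 4.02e-09), and P4ha2, a collagen hydroxylase, had 26.2, 24.4 and 32.4 FPKM against 63.2, 62.96 and 62.7 FPKM (-1.17 ± 0.11, adjusted p = 1.96e-07). Wnt and beta-catenin targets were lower in 2 of 7 cases, Wisp1 (-1.64 ± 0.25, adjusted p = 3.1e-05) and Dkk3 (-1.39 ± 0.12, adjusted p = 8.19e-08), and Cyp1b1 was the 1 of 4 aryl hydrocarbon receptor targets called (lower, -0.77 ± 0.18, adjusted p = 0.00127).

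Cell cycle inhibitors and p53 targets were 7 higher and 5 lower of 19 (median 0.14). Leaving out 1 library moved the median between 0.06 (without Vehicle replicate 2) and 0.28 (without PE plus 50 µM replicate 2), and quantile normalization gave 5 higher and 6 lower. Cdkn2c, an inhibitor of CDK4 and CDK6, had 7.96, 7.13 and 8.26 FPKM with PE plus 50 µM against 21.8, 20.3 and 15.2 FPKM in Vehicle (-1.18 ± 0.14, adjusted p = 3.24e-06), and Bax, which opens the mitochondrial membrane in apoptosis, had 152, 153 and 155 FPKM against 94.6, 94.05 and 94.96 FPKM (0.69 ± 0.07, adjusted p = 8.41e-07). Muscle ubiquitin ligases and autophagy genes were 8 higher and 2 lower of 19 (median 0.06), and 6 higher and 9 lower with quantile normalization (median -0.03). Sqstm1, the autophagy receptor p62, had 601, 734 and 545 FPKM with PE plus 50 µM against 297, 259 and 253 FPKM in Vehicle (1.21 ± 0.14, adjusted p = 2.42e-06).

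Krt18, a keratin of simple epithelia kept among the epicardial and mesothelial markers (rn5 chr7:141425683-141429360), had 254, 99.3 and 172 FPKM with PE plus 50 µM, 23.4, 28.2 and 44.8 with PE, 103, 40.8 and 43.6 with 50 µM alone and 38.1, 30.3 and 33.7 in Vehicle (2.24 ± 0.37, adjusted p = 6.47e-05). The other called members of that list were lower: Aldh1a2 (-1.35 ± 0.33, adjusted p = 0.00222), Tbx18 (-0.98 ± 0.19, adjusted p = 0.000269) and Msln (-1.09 ± 0.42, adjusted p = 0.0317), so 1 of 7 rose and 3 fell (median -0.30, and -0.16 without Vehicle replicate 3). The call of Msln was lost with quantile normalization (adjusted p = 0.0592) and with no filter (0.0563). Leaving out PE plus 50 µM replicate 1 or 2, or Vehicle replicate 2 or 3, also removed it. Of the Schwann and neural markers 1 of 5 was called, Tubb3, lower (-1.21 ± 0.27, adjusted p = 0.00112); none of the 7 erythroid markers was high enough to be tested.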
